A study of Mus musculus with 30 samples.

Results

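The expression of 10 genes that mark monocytes and macrophages was followed across the colons of 30 mice. The genes were Ly6c2, Ms4a6d, Ms4a7, Cd68, Csf1r, Lyz2, Mrc1, C1qa, C1qb and C1qc, chosen by name to set incoming monocytes against resident macrophages, out of 55487 genes in the count table. Each mouse gave 1 library of colon total RNA, and the 6 genotypes held 5 mice each. In the XBP1IEC-KO;Casp8IEC-KO;TNFR1IEC-KO mice, here the TNFR1 triple knockout, Xbp1, Casp8 and the TNF receptor gene Tnfrsf1a (TNFR1) were deleted in intestinal epithelial cells (IEC). The XBP1IEC-KO;Casp8IEC-KO;MLKLKO mice, here the MLKL triple knockout, carried both epithelial deletions and lacked Mlkl, for which the labels name no cell type. The XBP1IEC-KO;Casp8IEC-KO mice (double knockout), the Casp8IEC-KO mice (Casp8 knockout) and the XBP1IEC-KO mice (Xbp1 knockout) carried the epithelial deletions alone, and WT mice were the controls. The labels give no age, sex or Cre driver. XBP1 is a transcription factor of the unfolded protein response, and caspase-8 drives apoptosis and holds back necroptosis. TNF signals mainly through TNFR1, and MLKL carries out necroptosis. None of these deletions was directed at monocytes or macrophages, except that the Mlkl deletion is labelled without a cell type.

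The macrophages of the colon wall are replaced throughout life by blood monocytes that carry high Ly6C. After entry these cells lose Ly6C, gain MHC class II and mature into resident macrophages that clear dead cells and bacteria, and during inflammation more of them arrive and many do not complete this path. Ly6c2 encodes the Ly6C antigen, which is also found on plasma cells, some T cells and endothelial cells. Ms4a6d and Ms4a7 encode membrane proteins of the MS4A family of monocytes and macrophages. Cd68 encodes a lysosomal glycoprotein, Csf1r the receptor of the growth factors CSF1 and IL-34, and Lyz2 the lysozyme of macrophages and neutrophils. Mrc1 encodes the mannose receptor CD206 of resident macrophages. C1qa, C1qb and C1qc encode the 3 chains of C1q, which starts the classical complement pathway and in tissues is made mostly by macrophages.

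Libraries held 3516792.6 to 5823059.7 reads. Values are given as CPM, scaled by the total of each library and by its TMM factor, which allows for differences in RNA makeup. In the median library 1 read made about 0.236 CPM. Of all genes, 15458 had enough reads to be tested, the 10 members among them. Casp8 stood at 16.5 to 33.6 CPM in the TNFR1 triple, 12.2 to 29.6 in the MLKL triple, 22 to 46.3 in the double and 24.7 to 34.8 in the Casp8 knockout, against 51.5 to 58.7 CPM in WT. Xbp1 was at 51.1 to 65.1 CPM in the Xbp1 knockout and 70.4 to 139.5 in the double knockout, each overlapping WT at 52.8 to 100 CPM. It was higher in the double than in the Xbp1 knockout (log2 fold change 0.91 ± 0.203, edgeR adjusted p = 0.00558), although both are labelled with its deletion. The level of Xbp1 is thus no check of the labels, and the reads, which come from the 3′ end, may lie outside the deleted exons. Tnfrsf1a was at 52.4 to 75.4 CPM in the TNFR1 triple, 53.7 to 87.9 in the MLKL triple and 74.5 to 113 in the double knockout, against 65.0 to 78.9 CPM in WT. It was lower in the TNFR1 triple than in the double knockout, by a log2 fold change of −0.68 ± 0.130 (edgeR adjusted p = 0.00557), but not by the test than in WT (−0.23 ± 0.131, adjusted p = 0.381). Tnfrsf1a was also lower in the MLKL triple than in the double knockout (−0.42 ± 0.129, adjusted p = 0.0395) and higher in the double knockout than in WT (0.45 ± 0.129, adjusted p = 0.0122), so its level in whole colon is a weak check of the epithelial deletion. Mlkl was lower in the MLKL triple than in the double knockout (−1.97 ± 0.454, adjusted p = 0.00669), but not by the test than in WT (−0.68 ± 0.486, adjusted p = 0.535). It was higher in the double knockout than in WT (1.29 ± 0.430, adjusted p = 0.03), a call lost with 5 of the 10 libraries left out in turn. The library labelled XBP1IEC-KO replicate 2 had 21.1 CPM of Casp8, below every Casp8 knockout library, and the library labelled XBP1IEC-KO;Casp8IEC-KO;MLKLKO replicate 5 had 10.7 CPM of Mlkl, above every WT library. The first goes against its label. The second is less clear, since its Mlkl lay below every double knockout library, at 11.8 to 29.2 CPM. Double knockout replicate 1 stood apart with 10.3% mitochondrial reads, the lowest share. Calls of the members that these libraries change are given with and without them. Levels are given both ways for Ly6c2 and the library labelled XBP1IEC-KO;Casp8IEC-KO;MLKLKO replicate 5. By their sex-linked genes, 4 of 5 mice were female in the TNFR1 triple, 5 in the MLKL triple, 1 in the double and 3 in each single knockout, and 1 in WT.

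C1qa, C1qc and C1qb lie next to each other on chromosome 4 of the mouse (build GRCm38), with 2851 and 3616 bases between neighbours, all on the minus strand. C1qa spans bases 136895917 to 136898803, C1qc 136889804 to 136893065 and C1qb 136880129 to 136886187. Ms4a7 and Ms4a6d lie on chromosome 19, and Ly6c2 lies on chromosome 15 at 75108158 to 75111970. Windows of 250 bases before to 50 bases after a RefSeq transcription start (build GRCm38.p6) were used for 7 members, not for Csf1r, C1qa or Ms4a6d. They were searched on both strands for the core of the site of PU.1, the transcription factor that myeloid cells depend on, written GAGGAA or, on the other strand, TTCCTC. The 7 members have 9 windows, since Ly6c2 and Ms4a7 have 2 each and those of Ly6c2 overlap. Of the 9 windows 7 held the core, against 28.3% of 32841 windows of all genes, and of the 7 members 6 held it in a window (Lyz2 did not), against 31.3% of 27018 genes. The interferon-stimulated response element, found in 3.44% of all windows on either strand, was not among the letters of any of them. The windows of Ly6c2, of 2 C1q chains and of Mrc1 are shown because Ly6c2 and the C1q chains rose in the double knockout and Mrc1 did not pass the test. Capitals mark the core, the minus strand genes are read on their own strand, and a match of letters does not show that the site is used.
Ly6c2, chr15:75111922-75112221, minus strand: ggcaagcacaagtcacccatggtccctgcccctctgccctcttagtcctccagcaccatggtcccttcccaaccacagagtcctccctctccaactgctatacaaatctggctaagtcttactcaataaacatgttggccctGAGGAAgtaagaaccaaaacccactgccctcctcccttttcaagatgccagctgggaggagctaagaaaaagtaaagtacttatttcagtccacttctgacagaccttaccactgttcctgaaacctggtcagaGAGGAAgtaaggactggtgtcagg
C1qb, chr4:136886151-136886450, minus strand: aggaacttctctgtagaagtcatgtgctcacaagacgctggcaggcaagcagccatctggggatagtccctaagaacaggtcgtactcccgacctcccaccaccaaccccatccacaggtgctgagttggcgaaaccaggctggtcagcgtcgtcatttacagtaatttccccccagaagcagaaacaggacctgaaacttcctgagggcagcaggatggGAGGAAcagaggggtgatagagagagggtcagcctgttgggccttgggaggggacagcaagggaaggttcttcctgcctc
C1qc, chr4:136892865-136893164, minus strand: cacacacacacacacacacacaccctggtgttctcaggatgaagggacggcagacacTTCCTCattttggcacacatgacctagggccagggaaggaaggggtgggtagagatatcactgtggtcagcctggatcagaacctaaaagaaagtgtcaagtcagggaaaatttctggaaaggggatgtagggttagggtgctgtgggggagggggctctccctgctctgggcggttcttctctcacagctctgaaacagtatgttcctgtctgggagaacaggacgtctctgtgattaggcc
Mrc1, chr2:14229164-14229463, plus strand: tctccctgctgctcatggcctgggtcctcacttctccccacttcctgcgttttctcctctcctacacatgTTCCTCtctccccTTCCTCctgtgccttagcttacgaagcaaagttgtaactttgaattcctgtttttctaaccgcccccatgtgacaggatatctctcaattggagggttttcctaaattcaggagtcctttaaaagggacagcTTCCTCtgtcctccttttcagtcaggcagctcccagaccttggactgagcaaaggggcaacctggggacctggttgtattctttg
The core stood 108 bases before and 26 bases after the start in Ly6c2, 30 bases before it in C1qb, 193 in C1qc, and 180, 167 and 35 in Mrc1.

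Reads from the 3′ end cannot always tell a member from a near copy. The last 300 bases of the Ly6c2 transcript were identical to those of Ly6c1 at 291 positions, with a run of 124 identical bases, and those of Lyz2 to Lyz1 at 286 positions, with a run of 104. Counts of Ly6c2 against Ly6c1, an antigen of endothelium and T cells, and of Lyz2 against Lyz1, the lysozyme of Paneth cells, are therefore uncertain. The ends of Ms4a6d and its neighbours Ms4a6b and Ms4a6c shared no run above 8 bases.

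In the double knockout against WT, 7 of the 10 members rose and none fell. Ly6c2 had the highest fold change. By median r of log2 CPM over the libraries, it followed 8 plasma cell genes (0.857, range 0.225 to 0.925) more closely than 10 monocyte genes (0.543, range −0.812 to 0.773). Ms4a6d, Ms4a7, Lyz2 and the C1q chains rose by less, and Mrc1, Csf1r and Cd68 did not pass the test. Over all tested genes 11.1% rose in this comparison. The median log2 fold change was 0.97 over the members and 0.01 over all genes. In whole tissue, more cells of a type and more RNA per cell cannot be told apart.

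Ly6c2 had 17.8, 6.90, 28.1, 26.7 and 18 CPM in the 5 double knockout mice, against 1.10, 1.19, 0.920, 1.40 and 1.04 CPM in the 5 WT mice. Every double knockout mouse lay above every WT mouse, although the WT values rest on 4 to 6 reads per library and the double knockout values on 27 to 141. The log2 fold change was 4.08 ± 0.704 (SE; adjusted p = 1.4e-04, edgeR quasi-likelihood test, Benjamini-Hochberg over all genes). Ly6c1, the near copy, rose as well (1.74 ± 0.326, adjusted p = 3.2e-04), so a share of its reads counted as Ly6c2 cannot be told apart. Ly6c2 made up 7.63 to 55.7 reads per 100 Ly6c1 reads in the double knockout and 2.13 to 3.16 in WT.

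Ms4a6d had 14.1, 5.88, 4.98, 15.8 and 15.3 CPM in the double knockout and 4.18, 4.03, 5.52, 5.36 and 2.60 CPM in WT. It rose (1.36 ± 0.308, adjusted p = 0.00196), but the double knockout mice split, with replicates 2 and 3 within or just above the WT range. Ms4a7 had 28.3, 19.7, 27.9, 48.2 and 32.8 CPM in the double knockout, against 10.8, 8.06, 12, 9.32 and 10.9 CPM in WT. The groups did not overlap, and the rise of Ms4a7 was 1.61 ± 0.250 (adjusted p = 4.3e-05). Ly6c2 and Ms4a7 were the members whose groups lay fully apart, as did 6.55% of all genes with the double knockout above.

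Lyz2 had 278, 114, 124, 219 and 177 CPM in the double knockout and 61.9, 76.3, 103, 83.2 and 145 CPM in WT. Its groups overlapped through WT replicate 5, and Lyz2 rose (0.96 ± 0.250, adjusted p = 0.00625). The near copy Lyz1 stood at 1.99 to 6.90 CPM in the double knockout and 3.96 to 6.06 CPM in WT, with a log2 fold change of −0.09 ± 0.462 (adjusted p = 0.917). Cd68 averaged 11 ± 3.73 CPM in the double knockout and 7.42 ± 2.78 CPM in WT (SD, n = 5 each), a difference that did not pass (0.58 ± 0.289, adjusted p = 0.153). Csf1r, the receptor on which colon macrophages depend, averaged 75.9 ± 23.2 CPM in the double knockout and 61.3 ± 9.38 CPM in WT (0.31 ± 0.197, adjusted p = 0.277). Double knockout replicate 2 had less Csf1r than any WT mouse, at 39.6 CPM.

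C1qa had 137, 49.6, 54.0, 116 and 81.1 CPM in the double knockout and 31.3, 34.6, 46.9, 40.8 and 50.7 CPM in WT. C1qb had 150.4, 49.6, 78.7, 152 and 129 CPM in the double knockout and 42.0, 59.5, 55.6, 53.6 and 73.4 CPM in WT. C1qc had 64.1, 35.3, 34.5, 74.0 and 60.6 CPM in the double knockout and 28.6, 32.5, 34.7, 27.3 and 32.3 CPM in WT. Replicates 2 and 3, which were also low in Ms4a6d, were the lowest double knockout mice for each chain, and 1 of them lay within the WT range each time. The chains rose by 1.10 ± 0.210 (C1qa, adjusted p = 3.6e-04), 0.98 ± 0.241 (C1qb, adjusted p = 0.0038) and 0.79 ± 0.172 (C1qc, adjusted p = 0.00138). Mrc1, by contrast, had 24.7, 42.5, 32.1, 51.0 and 50.8 CPM in the double knockout and 37.4, 38.4, 34.9, 42.4 and 31.5 CPM in WT. Its double knockout values lay on both sides of WT, and the log2 fold change was 0.11 ± 0.208 (adjusted p = 0.743). The 7 calls of this comparison were made with each alternative setting and with each library left out in turn.

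**Figure D1:**
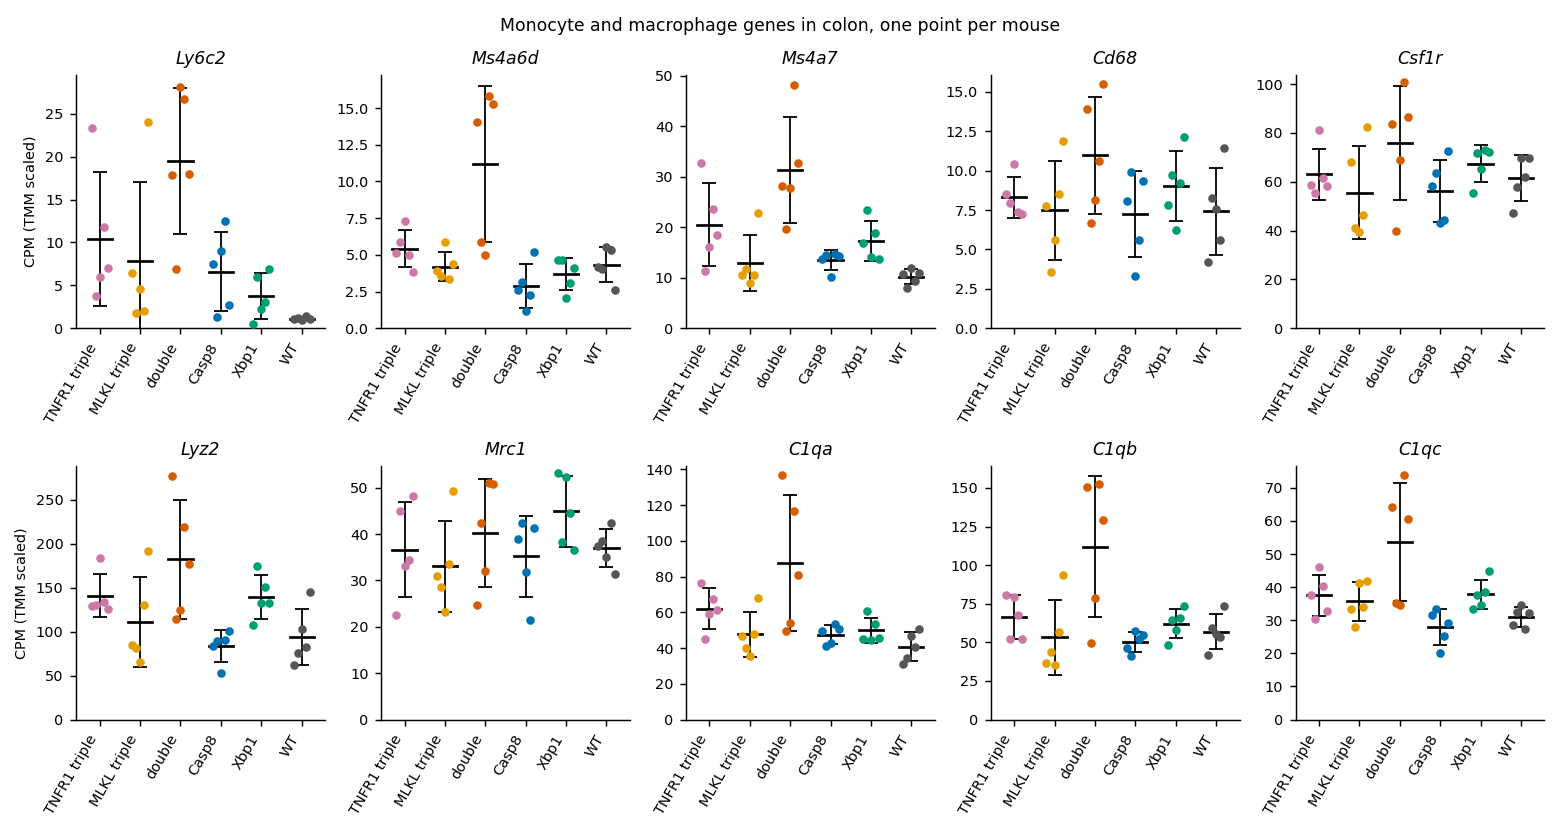
CPM of each of the 10 genes (vertical axis, starting at 0), with 1 point per mouse for the 5 mice of each genotype and bars for mean ± SD. The double knockout holds the highest mean for every gene except Mrc1, and 2 of its 5 mice lie near WT for Ms4a6d and C1qc.

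Within libraries, reads of Ly6c2 per 100 reads of the C1q chains ran from 5.07 to 16.8 in the double knockout and from 0.666 to 1.15 in WT. The ranges did not overlap. Plasma cells also carry Ly6C, and the summed plasma cell genes stood at 2720 to 15300 CPM in the double knockout against 435 to 1550 CPM in WT. The ratio can therefore not be read as monocytes against macrophages alone. The part of plasma cells in it was not tested. Reads of the C1q chains per 100 reads of Mrc1 ran from 317 to 1420 in the double knockout and from 272 to 497 in WT. These ranges overlapped, with 1 double knockout mouse inside that of WT. The highest value came from double knockout replicate 1, the library with the lowest mitochondrial share, and the next was 673. The median of the Ly6c2 ratio was 4.79 in the TNFR1 triple, 4.14 in the MLKL triple, 6.64 in the double, 5.87 in the Casp8 and 1.94 in the Xbp1 knockout, against 0.936 in WT. Without the library labelled XBP1IEC-KO;Casp8IEC-KO;MLKLKO replicate 5 the MLKL triple median was 2.86. The Casp8 knockout range, 1.13 to 9.51, overlapped that of the double knockout.

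**Figure D2:**
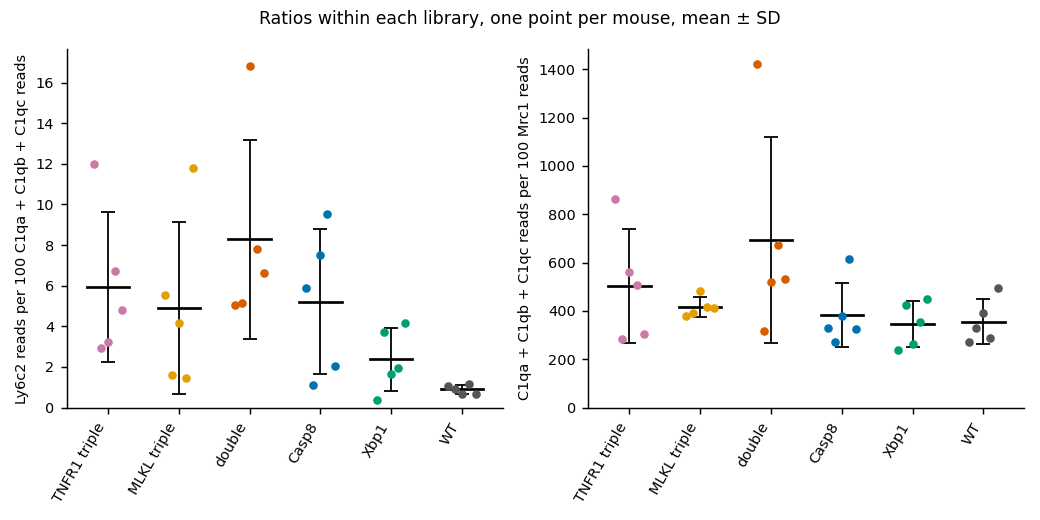
Ly6c2 reads per 100 C1q reads (left) and C1q reads per 100 Mrc1 reads (right) in each library, 1 point per mouse, with bars for mean ± SD. The left ratio is above 5 in the 5 double knockout mice and at or below 1.15 in the 5 WT mice. The right one overlaps, with double knockout replicate 1 at 1420.

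Other genes of these cells were read in the same comparison from lists that were also chosen with results of these data known. Of 10 measured genes of incoming monocytes, out of 12 listed, 6 rose and 1 fell in the double knockout against WT. Those of smallest p were Fcgr4, an activating Fc receptor (3.0 ± 0.538, adjusted p = 2.0e-04), Cd14, the lipopolysaccharide coreceptor (1.20 ± 0.224, adjusted p = 3.0e-04), Plac8 (1.17 ± 0.218, adjusted p = 2.9e-04) and fibronectin, Fn1, which fell (−0.83 ± 0.129, adjusted p = 4.3e-05) and is also made by fibroblasts. Plac8 averaged 863.5 CPM in WT, where Cd14 averaged 16.3, Fcgr4 2.23 and the epithelial gene Epcam 977 CPM. Which cells gave the Plac8 reads was not tested. Of 13 measured resident macrophage genes out of 18, 2 rose and 4 fell, where 11.1% of all genes rose and 10.2% fell. Among the risers was the fractalkine receptor Cx3cr1 (1.11 ± 0.321, adjusted p = 0.013). The genes that fell were the haemoglobin scavenger receptor Cd163 (−1.06 ± 0.297, adjusted p = 0.0108), the hyaluronan receptor Lyve1 (−0.99 ± 0.248, adjusted p = 0.00464), which lymphatic vessels also carry, the engulfment receptor Mertk (−0.55 ± 0.148, adjusted p = 0.00768) and Hpgd (−0.38 ± 0.139, adjusted p = 0.0485). Cx3cr1 and Hpgd are named after their values were seen, and the calls were lost for Hpgd with 9 of 10 libraries left out in turn and for Cx3cr1 without double knockout replicate 4 (adjusted p = 0.0512). The median log2 fold change was 1.19 over the monocyte list and −0.21 over the resident macrophage list, against 0.01 over all genes.

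All 15 genes of a list shared by myeloid cells rose, with a median of 1.25, where 11.1% of all genes rose. The part of other white blood cells in this list was not tested. Leaving out single libraries ended the call of Cd53 in 6 of 10 cases, of Ctss in 2 and of Spi1 in 1 (double knockout replicate 4). Mpeg1, a pore-forming protein of phagocytes, rose by 2.04 ± 0.315 (adjusted p = 4.2e-05), the signalling adaptor Tyrobp by 1.70 ± 0.288 (adjusted p = 1.2e-04), and Spi1, which encodes PU.1 and is named after its value was seen, by 1.07 ± 0.311 (adjusted p = 0.0136). Lgmn, a lysosomal protease, rose by 1.13 ± 0.194 (adjusted p = 1.4e-04). Of 10 measured chemokines, growth factors and receptors that act on monocytes, out of 16, 5 rose. These were the chemokines Ccl5 (3.44 ± 0.555, adjusted p = 6.9e-05) and Ccl8 (2.42 ± 0.530, adjusted p = 0.00141), the shared receptor chain Csf2rb (1.74 ± 0.355, adjusted p = 7.5e-04), Tgfb1 (1.41 ± 0.335, adjusted p = 0.00299) and, named after its value was seen, the interleukin 10 receptor Il10ra (1.33 ± 0.340, adjusted p = 0.00539). Csf2 had 0 reads in all 30 libraries, and Ccl2 had at most 36 reads in a library and was not tested.

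**Figure D3:**
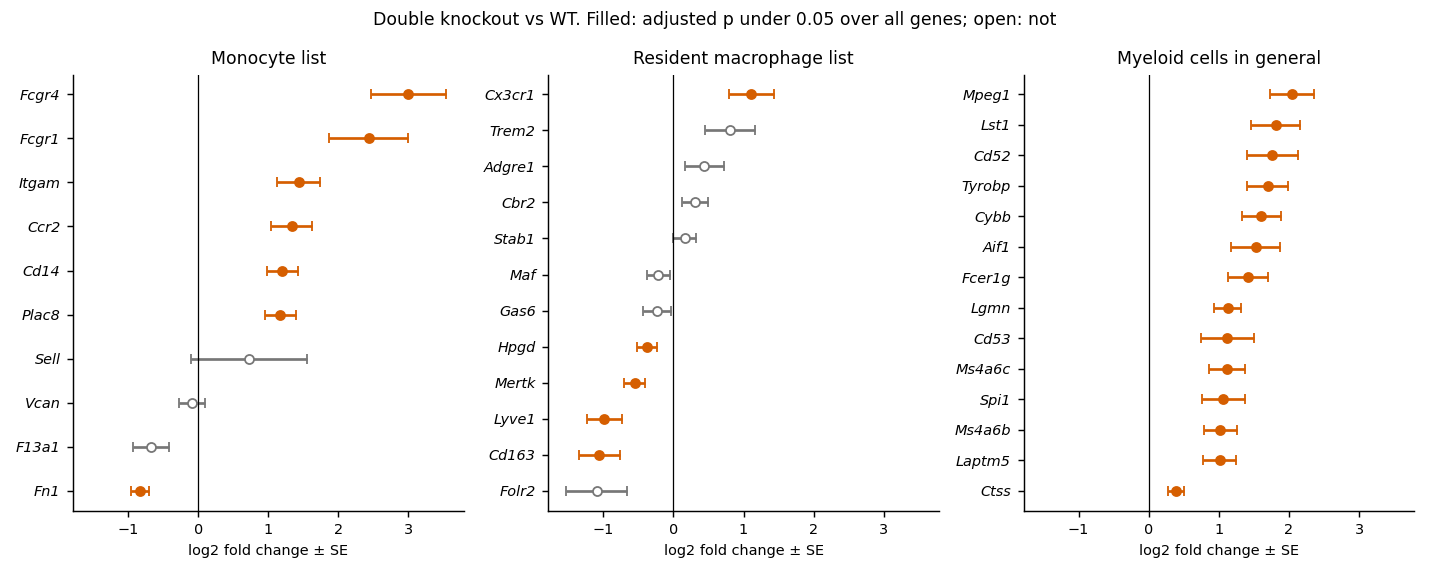
Log2 fold change ± SE of measured genes of the monocyte, resident macrophage and general myeloid lists in the double knockout against WT, filled where the adjusted p was under 0.05. The general myeloid genes lie to the right of 0, while the resident macrophage genes spread from Folr2 at −1.09 to Cx3cr1 at 1.11.

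Markers of other cells moved in the same comparison, where 11.1% of all genes rose and 10.2% fell. Plasma cell genes rose in 7 of 8 and summed to 2720 to 15300 CPM in the double knockout, against 435 to 1550 CPM in WT. T and NK cell genes rose in 6 of 6 measured out of 13, with sums of 19.7 to 80.6 CPM in the double knockout and 3.52 to 11.7 CPM in WT. The 3 measured neutrophil genes out of 12 rose, with S100a8 at 7.21 ± 1.17 (adjusted p = 7.5e-05), and neutrophils also make Lyz2. Sums here cover all genes of a list, tested or not, and the 12 neutrophil genes summed to 243 to 805 CPM in the double knockout and 138 to 268 CPM in WT. The WT sum was nearly all Ly6g, at 137 to 268 CPM, where S100a8 averaged 0.327 and S100a9 0.611 CPM. Smooth muscle genes fell in 8 of 8, with sums of 2920 to 4480 CPM in the double knockout and 5830 to 8210 CPM in WT, and fibroblast genes fell in 5 of 7, with 1630 to 2440 CPM in the double knockout and 2360 to 3240 CPM in WT. Epithelial genes rose in 6 of 9 (7290 to 8990 CPM in the double knockout, 5660 to 6740 CPM in WT), and 2 of 4 measured dendritic cell genes rose (14.1 to 30.2 CPM in the double knockout, 14.2 to 19.5 CPM in WT). No endothelial gene of 8 (163 to 246 CPM in the double knockout, 180 to 219 CPM in WT), B cell gene of 7 or adipose gene of 3 passed the edgeR test. The Paneth cell genes Defa17, Defa21 and Mptx2 were at 0 in every library. The part of these other cells in the changes of the members was not tested.

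No member passed the test in either single knockout against WT. In the Xbp1 knockout 0 members passed with edgeR, DESeq2 or limma voom, against 0.0582% of all genes that rose, and 3 had an unadjusted p under 0.05. These 3 were Ms4a7, Lyz2 and Ly6c2, each higher. Ms4a7 had 16.8, 23.4, 14.1, 18.8 and 13.7 CPM in the Xbp1 knockout, above each WT mouse (0.76 ± 0.257, adjusted p = 0.182), as did 2.05% of all genes. Without the library labelled XBP1IEC-KO replicate 2 the Ms4a7 difference was 0.63 (adjusted p = 0.372). With only the compared groups in the edgeR fit Ms4a7 was called (0.77, adjusted p = 0.0405). The Xbp1 knockout mice had 0.487, 6.03, 2.28, 3.06 and 6.86 CPM of Ly6c2 and overlapped WT (1.71 ± 0.811, adjusted p = 0.363).

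In the Casp8 knockout 0 members passed with edgeR, against 0.634% of all genes that rose, and Ly6c2 alone had an unadjusted p under 0.05. It stood at 7.48, 1.30, 9.01, 12.5 and 2.74 CPM in the Casp8 knockout, with replicate 2 inside the WT range and the other 4 above it (2.53 ± 0.767, adjusted p = 0.093). DESeq2 called it (adjusted p = 0.0269), as did a fit without the low-count filter, and limma voom did not. The C1q chains, Lyz2 and Mrc1 differed from WT by a log2 fold change of −0.17 to 0.22 in the Casp8 knockout.

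The double knockout was also set against each single knockout. Against the Xbp1 knockout 5 members rose in the double knockout, and 4.77% of all genes did. Ly6c2 rose by 2.37 ± 0.588 (adjusted p = 0.0107) and Ms4a6d by 1.60 ± 0.313 (adjusted p = 0.00216), and for both the groups did not overlap, as for 3.22% of all genes. Ms4a7 (0.85 ± 0.238, adjusted p = 0.0227), C1qa (0.81 ± 0.207, adjusted p = 0.0129) and C1qb (0.85 ± 0.239, adjusted p = 0.0232) rose too. Lyz2, at 139 ± 24.8 CPM in the Xbp1 knockout, did not pass (0.39 ± 0.247, adjusted p = 0.339). The count was 3 without double knockout replicate 1, without Xbp1 knockout replicate 1 or without Xbp1 knockout replicate 3, and 2 without double knockout replicate 4. Without the library labelled XBP1IEC-KO replicate 2 the 5 calls were made.

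Against the Casp8 knockout 7 members rose, and 9.68% of all genes did. Lyz2 had 83.5, 89.9, 53.4, 90.1 and 101 CPM in the Casp8 knockout, below each double knockout mouse (1.13 ± 0.252, adjusted p = 0.00243). Ms4a7 (1.21 ± 0.246, adjusted p = 0.00106) and C1qc (0.95 ± 0.175, adjusted p = 4.8e-04) did not overlap either, as for 4.35% of all genes. Ms4a6d rose by 1.97 ± 0.330 (adjusted p = 2.0e-04), C1qa by 0.89 ± 0.209 (adjusted p = 0.00362) and C1qb by 1.16 ± 0.243 (adjusted p = 0.00146). Ly6c2 was just past the threshold (1.55 ± 0.557, adjusted p = 0.0491) and was not called by DESeq2 (adjusted p = 0.0909), nor with 8 of the 10 libraries left out in turn (adjusted p = 0.0247 to 0.123 over the 10).

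The interaction asks whether the effect of the Xbp1 deletion differed between mice with and without the epithelial Casp8 deletion. It passed for 1 member, Ms4a6d, and for 0.712% of all genes in the higher direction. Ms4a6d had 2.59, 3.13, 1.19, 2.29 and 5.21 CPM in the Casp8 knockout and 4.63, 4.63, 2.07, 3.06 and 4.11 CPM in the Xbp1 knockout. Both single knockouts thus overlapped WT or lay below it, while 3 of 5 double knockout mice were at 14.1 CPM or more. The Xbp1 deletion changed Ms4a6d by 1.97 in mice without epithelial Casp8 and by −0.24 in mice with it, and the difference was 2.21 ± 0.474 (adjusted p = 0.0226). This call was lost with sex as a term (adjusted p = 0.0733) and without the 3 libraries that stood apart (adjusted p = 0.057), at log2 differences of 1.82 and 2.20. C1qb (1.03 ± 0.343, adjusted p = 0.104) and C1qc (0.66 ± 0.246, adjusted p = 0.146) did not pass. For Ly6c2 the interaction was −0.15 ± 0.897 (adjusted p = 0.949), an interval too wide to tell additive from other effects.

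In the MLKL triple knockout the members were lower than in the double knockout, and 5 of 10 fell. These were Ms4a6d, Ms4a7 and the 3 C1q chains, and over all genes 4.21% fell. The median log2 fold change was −0.80 over the members and 0.01 over all genes. In the TNFR1 triple knockout against the double knockout the median was −0.51, but 0 members passed the edgeR test, and 1.33% of all genes fell. Whether the MLKL and TNFR1 triple knockouts differed from each other was not tested, and both were set against the same 5 double knockout mice.

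Ms4a7 had 10.6, 11.8, 9.01, 10.6 and 22.8 CPM in the MLKL triple knockout, so 4 of its 5 mice lay below the lowest double knockout mouse, at 19.7 CPM. The exception was the library labelled XBP1IEC-KO;Casp8IEC-KO;MLKLKO replicate 5. Ms4a7 fell by 1.27 ± 0.244 on the log2 scale (adjusted p = 0.00147). Ms4a6d had 3.89, 3.54, 5.84, 3.37 and 4.37 CPM in the MLKL triple knockout and fell by 1.42 ± 0.309 (adjusted p = 0.00434). The MLKL triple mice had 46.7, 40.0, 35.6, 48.1 and 68.0 CPM of C1qa (−0.88 ± 0.208, adjusted p = 0.00773). C1qb stood at 36.6, 43.9, 35.1, 56.6 and 93.7 CPM (−1.08 ± 0.241, adjusted p = 0.00544) and C1qc at 33.5, 27.9, 41.2, 34.1 and 42.0 CPM (−0.59 ± 0.171, adjusted p = 0.0302), and the C1qc call was lost with 6 of the 10 libraries left out in turn. With only the compared groups in the fit, C1qa (adjusted p = 0.08), C1qb (0.0734) and C1qc (0.139) lost their calls, and Ms4a7 and Ms4a6d kept theirs. Without the library labelled replicate 5 the log2 fold changes were −1.57 (Ms4a7), −1.43 (Ms4a6d), −1.04 (C1qa), −1.38 (C1qb) and −0.65 (C1qc), and each was called. For each C1q chain the range overlapped that of the double knockout, whose replicates 2 and 3 were low.

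Ly6c2 had 6.49, 1.77, 4.63, 2.02 and 24 CPM in the MLKL triple knockout. The fifth value, from the library with Mlkl above WT, was as high as those of the double knockout, and the test was not passed (−1.35 ± 0.545, adjusted p = 0.127). Without that library Ly6c2 averaged 3.73 ± 2.25 CPM (SD, n = 4) and fell by 2.42 (adjusted p = 0.00518), Lyz2 by 1.01 (adjusted p = 0.00816, against −0.72 ± 0.249 and 0.07 with it) and Csf1r by 0.64 (adjusted p = 0.0386, against −0.46 ± 0.198 and 0.158 with it), which made 8 members that fell. Cd68 (−0.57 ± 0.289, adjusted p = 0.236) and Mrc1 (−0.27 ± 0.209, adjusted p = 0.466) did not pass. Sex differed between these groups, with 5 and 1 females of 5, and with sex as a term the calls of Ms4a6d (adjusted p = 0.0991) and C1qc (adjusted p = 0.203) were lost, while Ly6c2 passed (−2.24, adjusted p = 0.0251). The near copy Ly6c1 fell as well (−1.51 ± 0.322, adjusted p = 0.00365).

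In the TNFR1 triple knockout Ms4a6d had 5.11, 5.86, 7.32, 5.0 and 3.85 CPM and was the member of smallest p against the double knockout (−1.04 ± 0.299, adjusted p = 0.0559). C1qb had 81.0, 52.1, 79.4, 67.4 and 52.3 CPM in the TNFR1 triple knockout (−0.76 ± 0.238, adjusted p = 0.0824), and C1qc 37.7, 30.5, 46.2, 40.4 and 32.8 CPM (−0.52 ± 0.170, adjusted p = 0.0964). With C1qa (−0.50 ± 0.205, adjusted p = 0.18) and Ms4a7 (−0.61 ± 0.235, adjusted p = 0.15), 5 members had an unadjusted p under 0.05. DESeq2 called Ms4a6d alone (adjusted p = 0.0416) and limma voom called 0. The count was 3 without double knockout replicate 2 or without replicate 3, the mice that were low in Ms4a6d and C1q, and 2 without TNFR1 triple knockout replicate 1. Over all genes the calls grew as well. The main fit called 158 genes higher and 205 lower. In either direction 733, 569 and 931 were called without these 3 libraries, each in turn. The TNFR1 triple mice had 23.3, 3.75, 5.99, 11.8 and 7.01 CPM of Ly6c2, with replicate 1 at the level of the double knockout (−0.92 ± 0.528, adjusted p = 0.369). Ly6c1 fell (−1.28 ± 0.319, adjusted p = 0.0294), a call lost with 7 of the 10 libraries left out in turn. The log2 fold changes of Lyz2 (−0.37 ± 0.247), Cd68 (−0.41 ± 0.284), Csf1r (−0.27 ± 0.197) and Mrc1 (−0.12 ± 0.208) were negative too, that of Mrc1 not with sex as a term (0.02), and none had an adjusted p below 0.369.

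**Figure D4:**
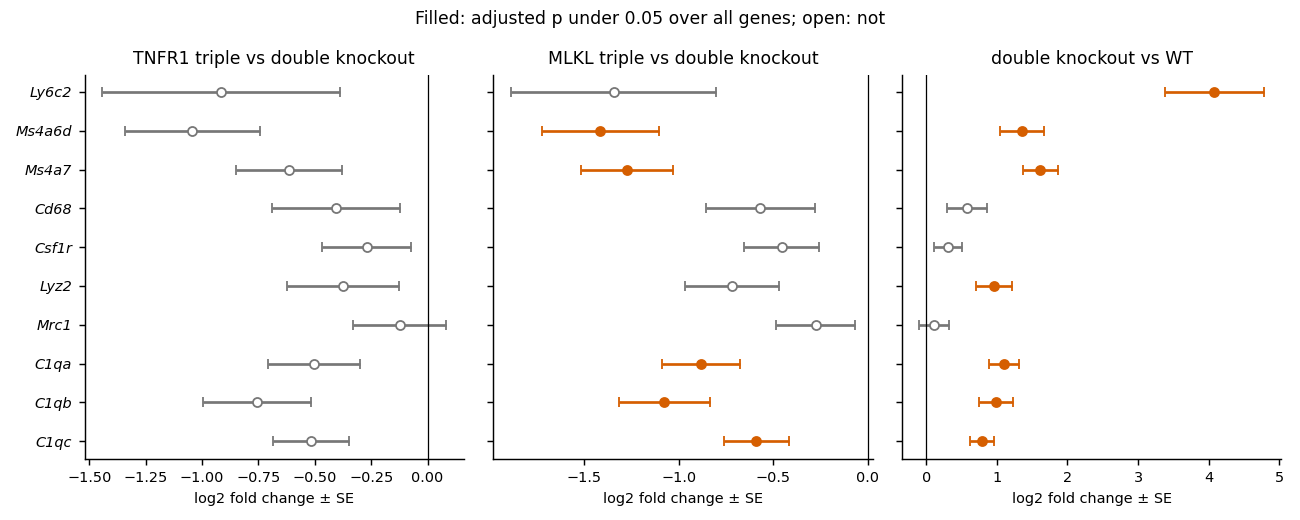
Log2 fold change ± SE of the 10 genes in the TNFR1 triple against the double knockout (left), the MLKL triple against the double knockout (middle) and the double knockout against WT (right), filled where the adjusted p was under 0.05. The points lie left of 0 in the first 2 panels, with 0 and 5 of them filled, and right of 0 in the last, with 7 filled.

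Against WT, 2 members were still higher in the TNFR1 triple knockout, where 1.16% of all genes rose. Ly6c2 lay above each WT mouse in all 5 (3.16 ± 0.730, adjusted p = 0.0196), as did 2.34% of all genes, and Ms4a7, with 32.8, 11.3, 16.2, 23.6 and 18.6 CPM in the TNFR1 triple mice, rose by 1.0 ± 0.255 (adjusted p = 0.0326). Neither call was made with sex as a term (adjusted p = 0.145 for Ly6c2 and 0.119 for Ms4a7), without TNFR1 triple knockout replicate 1 or without WT replicate 2, and that of Ms4a7 was lost without 6 of the 10 libraries, each in turn. In the MLKL triple knockout 0 members differed from WT by the edgeR test, 1 had an unadjusted p under 0.05, and 0.343% of all genes rose. That member was Ly6c2, above WT in all 5 mice as were 1.98% of all genes (2.73 ± 0.751, adjusted p = 0.0714). DESeq2 called it (adjusted p = 0.0122) and limma voom did not, and without the library labelled replicate 5 it was 1.66 (adjusted p = 0.282). The mean of Ly6c2 was 10.4 ± 7.82 CPM in the TNFR1 triple, 7.79 ± 9.28 in the MLKL triple (3.73 ± 2.25 without the library labelled replicate 5), 19.5 ± 8.51 in the double, 6.60 ± 4.58 in the Casp8 and 3.74 ± 2.65 in the Xbp1 knockout, against 1.13 ± 0.179 CPM in WT (SD, n = 5 each). Between the double knockout and WT, the 4 other means differed from one another by less than the larger SD of each pair.

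The other genes of these cells fell in part in the triple knockouts against the double knockout. Over all genes 4.21% fell in the MLKL triple and 1.33% in the TNFR1 triple. Of the 15 shared myeloid genes 5 fell in the MLKL triple and 2 in the TNFR1 triple, with Tyrobp in both (−1.09 ± 0.276, adjusted p = 0.0131 in the MLKL triple and −1.09 ± 0.275, adjusted p = 0.0313 in the TNFR1 triple). Of the monocyte list, Fcgr4 (−2.47 ± 0.511, adjusted p = 0.00289) and the integrin Itgam (−1.47 ± 0.304, adjusted p = 0.00289) fell in the MLKL triple, and Fn1 rose in the TNFR1 triple (0.48 ± 0.129, adjusted p = 0.0421). Of the resident macrophage list 0 of 13 passed in the TNFR1 triple by the edgeR test. The chemokine Ccl5, which draws T cells and monocytes, fell by 3.0 ± 0.527 in the MLKL triple (adjusted p = 7.6e-04) and by 2.02 ± 0.479 in the TNFR1 triple (adjusted p = 0.0232), and Ccl8 and Csf2rb fell in the MLKL triple. In the TNFR1 triple the calls of Tyrobp, Ccl5 and Fn1 were each lost with 7 of the 10 libraries left out in turn. With only the compared groups in the fit the MLKL triple calls of Tyrobp (adjusted p = 0.0969), Itgam (0.0603), Ccl8 (0.062) and Csf2rb (0.0557) were lost. Itgam is named after its value was seen. Plasma cell genes fell in 6 of 8 in the MLKL triple (1070 to 5130 CPM, against 2720 to 15300 CPM in the double knockout) and in 1 of 8 in the TNFR1 triple (2060 to 9620 CPM). Smooth muscle genes rose in 5 of 8 in both, where 3.44% of all genes rose in the MLKL triple and 1.02% in the TNFR1 triple, to 4610 to 5320 CPM in the MLKL triple and 3710 to 6750 CPM in the TNFR1 triple, against 2920 to 4480 CPM in the double knockout. The part of these cells in the members' changes was not tested.

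Across the 30 libraries the members split into genes that followed each other and genes that did not. Pearson's r of log2 CPM, given as a description since the libraries share genotypes, depth and tissue makeup, was 0.86 between C1qa and C1qb, 0.85 between Ms4a7 and C1qa, 0.83 between Lyz2 and C1qa and 0.79 between Cd68 and Csf1r. Mrc1 followed no other member, with r from −0.19 (Ly6c2) to 0.37 (Csf1r). Ms4a6d was closest to C1qc (0.82) and less so to Ly6c2 (0.36, and −0.07 after the mean of each genotype was taken out).

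The genes most like Ly6c2, outside the members, were plasma cell genes. These were Jchain, the joining chain of secreted antibody (r = 0.925), Igha, the constant region of IgA (0.92), and Mzb1, a chaperone of antibody assembly (0.913). Jchain had 512, 205, 871, 924 and 490.2 CPM in double knockout replicates 1 to 5, against 78.1, 19, 35.9, 62.7 and 54.6 CPM in WT. The double knockout mouse lowest in Ly6c2 was also the lowest in Jchain. With the means of the genotypes removed r was 0.824 for Jchain, 0.84 for Igha and 0.803 for Mzb1, and Spearman's rho over all libraries was 0.914, 0.904 and 0.921 for these genes. Without the 2 libraries farthest from the median of the plasma cell gene, r with Jchain was 0.931. Over the lists the median r of Ly6c2 was 0.857 with 8 plasma cell genes, 0.633 with 15 shared myeloid genes, 0.543 with 10 monocyte genes and −0.271 with 13 resident macrophage genes. Single genes spread widely, from 0.225 to 0.925 in the plasma cell list and from −0.812 to 0.773 (Fcgr4) in the monocyte list.

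**Figure D5:**
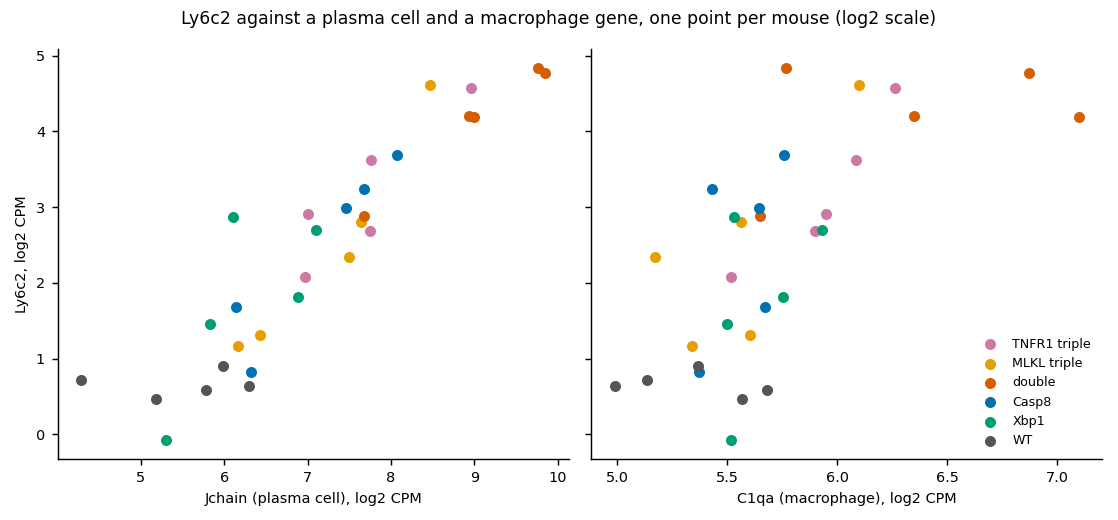
Ly6c2 against Jchain (left) and against C1qa (right) in log2 CPM, with 1 point per mouse coloured by genotype. The points follow a line in the left panel (r = 0.925) and scatter more in the right one (r = 0.709), where double knockout mice of like Ly6c2 differ widely in C1qa.

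Of the other members, Ms4a7 went with Cybb, the catalytic chain of the phagocyte oxidase (r = 0.928), and with the MHC class II genes Cd74 (0.914) and H2-Ab1 (0.908). C1qa went with Cd74 (0.91), the lipid carrier Apoe (0.902) and Cybb (0.901), and C1qb with Apoe (0.907), Csf2rb (0.9) and H2-Aa (0.887). Lyz2 (BE692007, Fcer1g, Ms4a6c), Cd68 (Ms4a6c, Sirpa, Fcer1g) and Csf1r (Fcer1g, Clec4a3, Grn) shared the Fc receptor chain Fcer1g, with r of 0.871, 0.736 and 0.755. Ms4a6d and C1qc had C1s1, a complement protease gene, as the closest (0.814 and 0.857), followed by Akr1b10 (0.783) and the bacterial lipoprotein receptor Tlr2 (0.778) for Ms4a6d, and by Tyrobp (0.835) and Ms4a6c (0.831) for C1qc. Spearman's rho was lower for Ms4a6d, at 0.643 with C1s1, 0.721 with Akr1b10 and 0.537 with Tlr2. For C1qc it was 0.782 with C1s1, 0.724 with Tyrobp and 0.816 with Ms4a6c. Mrc1 reached r of 0.728 with Mef2a, and its closest genes, which also included Dmxl2 and Tbc1d10a, were none of those named for another member.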

How the data were processed

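Colon RNA of 30 mice was read with the Lexogen QuantSeq 3′ forward kit, per the labels' protocols. The authors deposited estimated counts for each Ensembl gene, of which 11.2% of the non-zero ones are not whole. The submitters' processing notes name build GRCm38 and the tools R 4.0.0, featureCounts 2.01, Subread and cutadapt 3.2. Not given in the sources used here are the strand setting, the annotation release and how reads matching several genes were shared, which bears on Ly6c2 and Lyz2 with their near copies and on antisense genes. Estimated counts were rounded, which moved no library total by more than 0.00321%. The low-count filter was filterByExpr over the groups, and all libraries entered 1 edgeR fit (R 4.3.3, edgeR 4.0.16, TMM, quasi-likelihood F test), with p adjusted by Benjamini-Hochberg over 15458 genes in each of 10 comparisons and a threshold of 0.05. A prior count of 2 was used for log2 CPM. For each log2 fold change, the SE is the absolute value over √F. Counts have no molecular identifiers named, so they can hold PCR copies.

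The members and lists were chosen with earlier results of these data known. The text names all members, up to 4 called genes of smallest p per list in the double knockout against WT, near copies, the targeted genes, and the 3 genes of highest r per member. Replicates are separate mice. The scripts were tested on simulated data. Alternatives were a stricter filter on low counts (10 reads in 10 libraries) or none, size factors from DESeq2, the compared groups alone, DESeq2 1.42.0, limma 3.58.1 voom with quality weights, a replicate block, sex as a term, each library left out, and, chosen after seeing the data, 3 libraries left out together. Promoter windows came from RefSeq and coordinates from the GENCODE annotation. Single results of a few list genes are not reported here, although the counts and medians of their lists include them.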

Additional observations from a re-analysis of the deposited data

Results flagged for a closer look

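In 60 groups of 5 mice (10 genes in 6 genotypes), the gap between the most extreme mouse and the next was set against the range of its group, a measure that flags about 1 group in 20 by chance. It stood out in 5. In the MLKL triple knockout the library labelled replicate 5 was highest in Ly6c2, with 24 CPM against 6.49 in the next mouse (0.788 of the range), and in Ms4a7, with 22.8 against 11.8 CPM (0.797). In the TNFR1 triple knockout replicate 3 was highest in Lyz2, with 184 against 134 CPM (0.856), and in Csf1r, with 81 against 61.4 CPM (0.763). Casp8 knockout replicate 3 was lowest in Ms4a7, with 10.2 against 13.8 CPM in the next mouse (0.794). The effect of the Xbp1 deletion on Ms4a6d differed between mice with and without the epithelial Casp8 deletion by 2.21 on the log2 scale, by the interaction test.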

How the results depend on the processing

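The 7 members called in the double knockout against WT were called in each setting, and no called member changed direction in any. With edgeR fitted to the compared groups alone, the calls were 3 (double against Xbp1 knockout), 2 (MLKL triple against double) and 1 (Xbp1 knockout against WT). With sex as a term they were 0 for the interaction and for the TNFR1 triple against WT. With DESeq2, and with no low-count filter, 1 member was called in the Casp8 knockout and in the MLKL triple against WT, Ly6c2 each time, and 1 and 2 in the TNFR1 triple against the double knockout. Without the 3 libraries that stood apart the calls were 1 in the Casp8 knockout against WT and 0 for the interaction. With each library left out in turn, calls ran from 2 to 6 (double against Xbp1 knockout), 4 to 8 (MLKL triple against double), 0 to 3 (TNFR1 triple against double), 0 to 2 (TNFR1 triple against WT) and 1 to 2 (interaction, 2 without double knockout replicate 2). The cause of these shifts was not tested. Values near 0 changed sign. Mrc1 in the TNFR1 triple against the double knockout was 0.017 with sex as a term and −0.26 to 0.0056 with libraries left out, and Lyz1 in the double knockout against WT was −0.29 to 0.11.

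Replicate numbers did not pair the mice, since 19 of 75 same-number pairs had a correlation above 0.1 and 5 of 30 libraries correlated best with their own number. With a replicate block the double knockout against WT gave 7 calls and the count of members called changed in no other comparison. Depth limits Ly6c2 most, at 4 to 6 reads per WT library.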
